A study of Mus musculus with 12 samples.

Results

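Histone genes were followed by RNA sequencing of C2C12 cells, a mouse myoblast line, after depletion of KEAP1, CCNF or both. They were taken as the protein-coding rows whose symbol is a histone name (the Hist1 to Hist4 cluster symbols and the H1f, H2af and H3f3 symbols), which gave 79 of the 54532 genes in the table. By symbol, 64 of them were replication-dependent genes of the histone clusters, 12 were variants, and 3 were testis forms in the Hist1 cluster (Hist1h1t, Hist1h2aa and Hist1h2ba). Of the 64 replication-dependent genes, 51 lay on chromosome 13, 10 on chromosome 3, 2 on chromosome 11 and 1 on chromosome 6, while the 12 variants were spread over 9 chromosomes. A filter on low counts was passed by 40 members, namely 31 replication-dependent genes and 9 variants, and no testis form passed it.

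The 4 groups received siCONTROL, siKEAP1, siCCNF or siKEAP1/siCCNF for 48 h at 30 nM, with 3 libraries per group that the labels call biological replicates. KEAP1 is the adaptor through which a CUL3 ubiquitin ligase targets the transcription factor NRF2 for degradation, and CCNF, or cyclin F, is an F-box protein of a CUL1 ligase with known substrates among cell-cycle proteins. All groups were transfected C2C12 cells in growth medium, whose serum content differs between the labels and the methods. Which Ccnf siRNA was sequenced, and whether the dose of the double depletion is a total or per siRNA, is not stated. Nothing says that replicates came from separately grown cultures beyond their label, so the p-values measure the spread between these libraries.

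Replication-dependent histone genes supply the core histones H2A, H2B, H3 and H4 and the linker H1 while DNA is copied. Their mRNAs are not spliced and usually end in a conserved hairpin in place of a poly(A) tail; SLBP binds the hairpin, and processing, translation and rapid decay at the end of S phase all go through it. Variant histones such as H2A.Z, macroH2A, the H3f3 proteins and the linker H1f0 are made from ordinary polyadenylated mRNAs, most of them throughout the cell cycle. H2A.X stands apart, since the annotated 3′ UTR of its gene H2afx held the hairpin and, further on, a poly(A) signal. How H2afx mRNA divides between such ends was not measured. The libraries were made from mRNA enriched by its poly(A) tail. Reads of replication-dependent genes therefore come from transcripts that this step retained, which are not the bulk of histone mRNA in a dividing cell, and the retained share was not measured.

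The hairpin was looked for in the annotated 3′ UTR of each member because it decides which class of 3′ end a transcript can use. The pattern searched on the sense strand was GG, any 3 bases, TT, any 3 bases, A, any 3 bases and CC, with all 6 stem bases paired around a loop of 4. Over whole protein-coding transcripts, coding sequence included, it was found in 290 of 21901 genes (1.32%), and in 243 of 21822 without the histone members. For members only matches in the 3′ UTR were counted, a narrower search. Of the 51 replication-dependent members with an annotated 3′ UTR of at least 30 bases, 45 held it there. H2afx alone did so among the 9 variants with such a UTR. Hist1h1c, Hist1h4i and H2afx are shown because their transcripts run on past the hairpin, and Hist1h3g and Hist1h3a because theirs end close to it, in each case 5′ to 3′ with the hairpin in capitals.
Hist1h1c, chr13:23739505-23739534, plus strand: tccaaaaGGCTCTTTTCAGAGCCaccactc
Hist1h4i, chr13:22040959-22040988, minus strand: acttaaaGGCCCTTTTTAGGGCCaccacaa
H2afx, chr9:44335233-44335262, plus strand: ccacaaaGGCCCTTTTAAGGGCCaccacct
Hist1h3g, chr13:23535882-23535911, plus strand: ctttaaaGGCTCTTCTTAGAGCCacccatc
Hist1h3a, chr13:23761883-23761912, minus strand: aaccaaaGGCTCTTTTCAGAGCCacacacg
Coordinates are those of GRCm38. The annotated transcript went on for 840 bases after the hairpin in Hist1h1c, 330 in Hist1h4i and 822 in H2afx, and each of these 3 ended with a poly(A) signal (AATAAA or ATTAAA) in its last 50 bases. It stopped 47 bases after the hairpin in Hist1h3g and 37 in Hist1h3a, neither with such a signal. The form printed for Hist1h1c was the commonest, at 26 of the 45 replication-dependent genes. Hist1h2bc, an H2B gene with 2 exons and a 3′ UTR of 742 bases, held no hairpin in that UTR. Sequence outside the annotated transcripts was not searched.

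Replication-dependent genes gave few reads. Over the 12 libraries the 64 genes collected 18045 reads, or 0.00583% of all counts, against 568335 reads for the 12 variants (0.183%). Hist1h1c, a linker histone H1, took 60.3% of the replication-dependent reads, and with Hist1h2bc and Hist1h4i, an H4 gene, 72.9%. Every other replication-dependent gene stayed at 44 reads or fewer in each library. No read was listed for 6 replication-dependent genes, all of which share over 50% of their 100-base windows with another gene, for the variants H2afb1, H2afb2 and H2afb3, or for Hist1h2aa and Hist1h2ba. Hist1h1t had 3 reads in all. Over the replication-dependent class 28 of 64 genes shared over 50% of their windows with another gene, and how reads of such copies were assigned is not given in the sources used here.

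Reads were unevenly spread over the kinds of annotated 3′ end. The 22 genes whose UTR runs over 100 bases past the hairpin had a median of 125.5 reads over all libraries, and 17 of them were tested. The 23 genes whose UTR stops within 100 bases of the hairpin had a median of 46 reads, and 7 were tested. A median of 84 was found for the 6 genes with a UTR and no hairpin, and of 47 for the 13 without a UTR of 30 bases. Per length the first pair of kinds did not stand in the same order, with median FPKM of 0.290 for the long UTRs and 0.341 for those stopping near the hairpin.

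**Figure D1:**
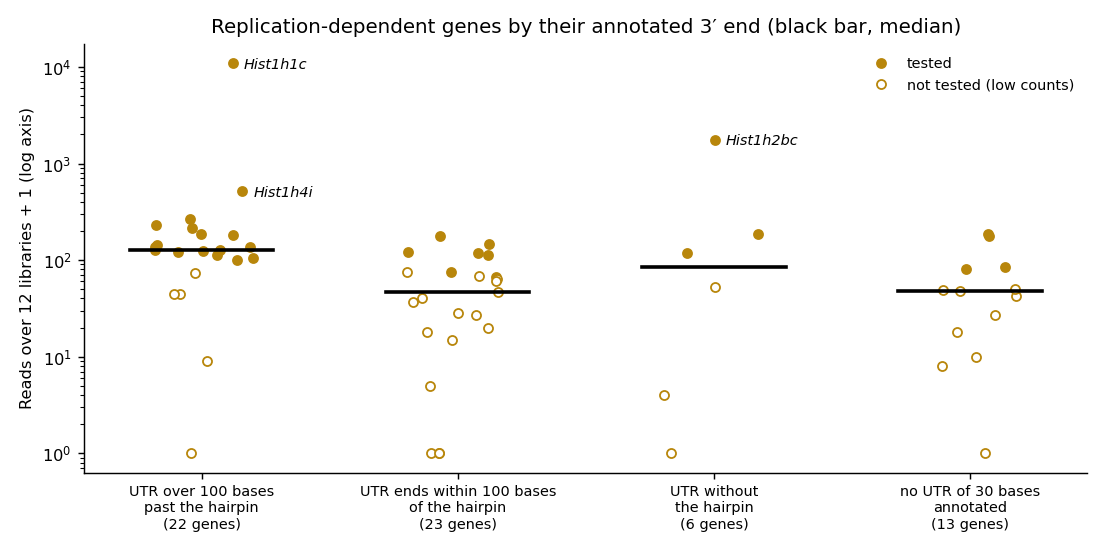
Reads of each replication-dependent histone gene summed over 12 libraries (plus 1, log axis), by its annotated 3′ end, with filled points for the 31 tested genes and a black bar at the median. Hist1h1c and Hist1h4i, both with UTRs past the hairpin, and Hist1h2bc, with a UTR and no hairpin, stand above all other genes.

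The targeted mRNAs followed the labels. Keap1 was at 87.8 ± 3.05 CPM (counts of a gene relative to the library total scaled by TMM, SD, n = 3) in siCONTROL, 12.6 ± 0.279 in siKEAP1, 85.1 ± 4.35 in siCCNF and 24.1 ± 2.56 in siKEAP1/siCCNF. Ccnf was at 81.1 ± 3.99, 59.4 ± 4.83, 20.5 ± 0.778 and 24.5 ± 1.01 in the same order. Library totals lay between 18464209 and 37743198 counts with the highest in siCCNF replicates 1 and 3. In siCONTROL replicate 1 and siKEAP1/siCCNF replicate 3 deviations from the group mean followed log gene length (r = -0.305 and -0.276 over genes, within ± 0.206 in the other libraries), and results that rest on them are given without them. All 8 myoblast markers were detected, with a summed level of 1581 to 1785 CPM in siCONTROL, 1001 to 1026 in siKEAP1, 761 to 775 in siCCNF and 731 to 794 in siKEAP1/siCCNF. The 12 myotube markers summed to 118 to 230 CPM in siCONTROL and to between 25.1 and 49.5 in the depleted groups. Fibroblast markers (4 genes) were at 47.9 to 73.0 CPM in siCONTROL, 44.2 to 46.0 in siKEAP1, 167 to 171 in siCCNF and 125 to 151 in siKEAP1/siCCNF, and the part of these marker shifts in the histone results was not tested. Markers of leukocytes, adipocytes, endothelium and epithelium summed to at most 10.1 CPM in any library, with Itgam at 0 throughout.

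The summed level of the 64 replication-dependent genes was lowest in the siCCNF groups. It stood at 123, 94.1 and 89.9 CPM in the siCONTROL libraries, 78.3, 78.5 and 70.9 in siKEAP1, 35.9, 32.5 and 35.4 in siCCNF, and 37.8, 34.7 and 42.2 in siKEAP1/siCCNF. Every library with siCCNF lay below every library without it. The siCCNF mean was 33.8% of the siCONTROL mean, that of siKEAP1/siCCNF 37.3% and that of siKEAP1 74.1%. Without Hist1h1c the other 63 genes stood at 118% of siCONTROL in siKEAP1, 42.7% in siCCNF and 45.7% in siKEAP1/siCCNF. The 12 variants summed to 2523 ± 338 CPM in siCONTROL, 1915 ± 42.1 in siKEAP1, 1509 ± 44.6 in siCCNF and 1652 ± 77.3 in siKEAP1/siCCNF, or 75.9%, 59.8% and 65.5% of siCONTROL. Reads of replication-dependent genes made up 3.78 to 4.07% of the reads of both classes in siCONTROL and 3.65 to 3.92% in siKEAP1, but 2.11 to 2.36% in siCCNF and 2.12 to 2.37% in siKEAP1/siCCNF. In bulk libraries fewer cells in a state and less RNA per cell cannot be told apart.

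**Figure D2:**
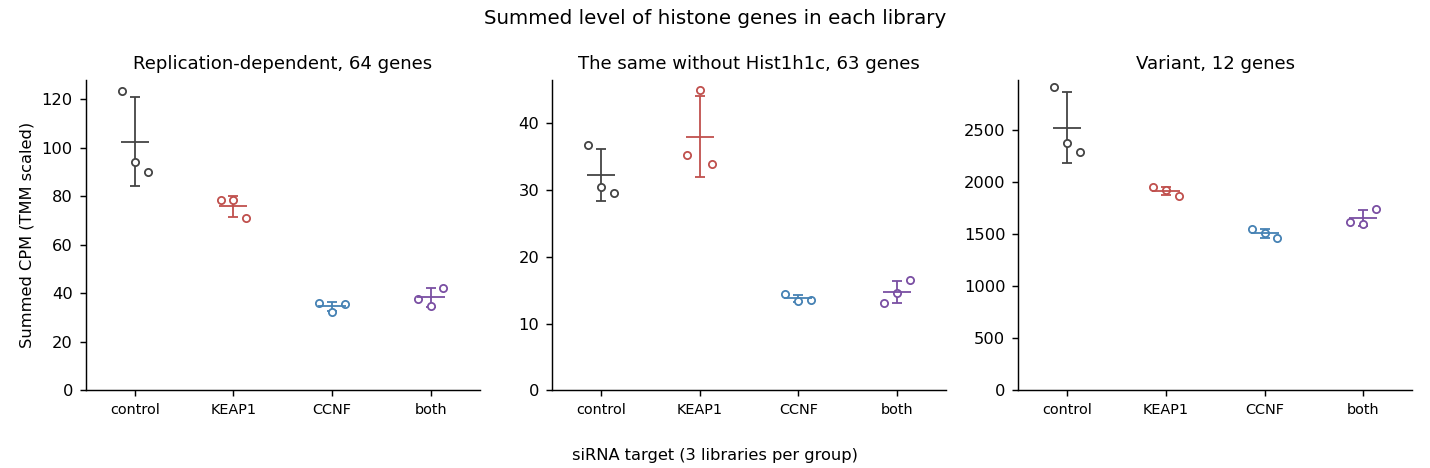
Summed CPM of the replication-dependent genes, of the same genes without Hist1h1c, and of the variants, with a point for each library and bars for the mean ± SD of 3. In the left and middle panels the 6 libraries with siCCNF lie below the 6 without it, and the siKEAP1 libraries drop below siCONTROL only where Hist1h1c is included.

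CCNF depletion lowered replication-dependent histone mRNAs, in the summed level and in the 3 genes with the most reads. In siCCNF against siCONTROL 21 of the 31 tested genes fell and none rose by edgeR's quasi-likelihood test (adjusted p under 0.05), beside 25.5% of all tested genes lower and 22.5% higher. The 0 that rose stayed 0 at an unadjusted p under 0.05 and by DESeq2, here and for siKEAP1/siCCNF against siCONTROL or siKEAP1. The calls covered 4 of 4 tested H1 genes, 2 of 3 H2A, 4 of 7 H2B, 6 of 9 H3 and 5 of 8 H4 genes. The median log2 fold change of the tested genes was -1.77, against 0.01 over all tested genes, and 29 of 31 values were negative. The filter bears on this count: 17 of the 31 genes reached its level of 0.422 CPM in all siCONTROL libraries and 19 in all siKEAP1 libraries, but only 5 in all siCCNF and 3 in all siKEAP1/siCCNF libraries, so that many genes were tested because they were high without siCCNF. The 3 genes with at least 10 reads in every library, Hist1h1c, Hist1h2bc and Hist1h4i, are free of that selection, and all 3 fell. They are an H1, an H2B and an H4 gene, so the calls of H2A and H3 genes all come from genes that the filter could select. The 33 genes that were not tested summed to 3.88 ± 0.884 CPM in siCONTROL and 1.44 ± 0.219 in siCCNF, with no overlap between the libraries of these groups. With only the libraries of these 2 groups in the fit, 17 genes were tested and 13 of them were called.

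In siKEAP1 against siCONTROL replication-dependent genes did not move in 1 direction. Hist1h3g rose and Hist2h3c2 and Hist1h1c fell, 3 of 31, beside 20.4% of all tested genes higher and 20.2% lower. The median log2 fold change was 0.27, and 10 of 31 values were negative. The filter bears on this median and these signs: its level was passed in all siCONTROL libraries by 17 genes, in all siKEAP1 libraries by 19, and in either by 24. Of the 3 genes free of that selection, Hist1h1c fell, and Hist1h2bc and Hist1h4i had negative values that were not called. The count of called genes was 1 of 38 without siCONTROL replicate 3, 1 of 31 without siKEAP1 replicate 2, and 7 of 31 with limma on log2(FPKM + 1). After siKEAP1/siCCNF 16 of the 31 genes fell against siCONTROL and none rose, beside 23.6% of all tested genes lower and 20.6% higher, with a median of -1.42 and all 31 values negative. That count dropped to 8 of 36 tested genes without siKEAP1/siCCNF replicate 1. It was 10 of 36 without siCONTROL replicate 1, 10 of 38 without siCONTROL replicate 2, and 10 of 36 without both libraries that follow gene length. For siKEAP1/siCCNF too the filter bears on the count, the median and the signs. Its level was passed in all siCONTROL libraries by 17 of the 31 genes, and in all siKEAP1/siCCNF libraries by 3. Hist1h1c, Hist1h2bc and Hist1h4i, which are free of that selection, all fell. The siKEAP1 and siKEAP1/siCCNF comparisons share the siCONTROL libraries with the siCCNF comparison.

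**Figure D3:**
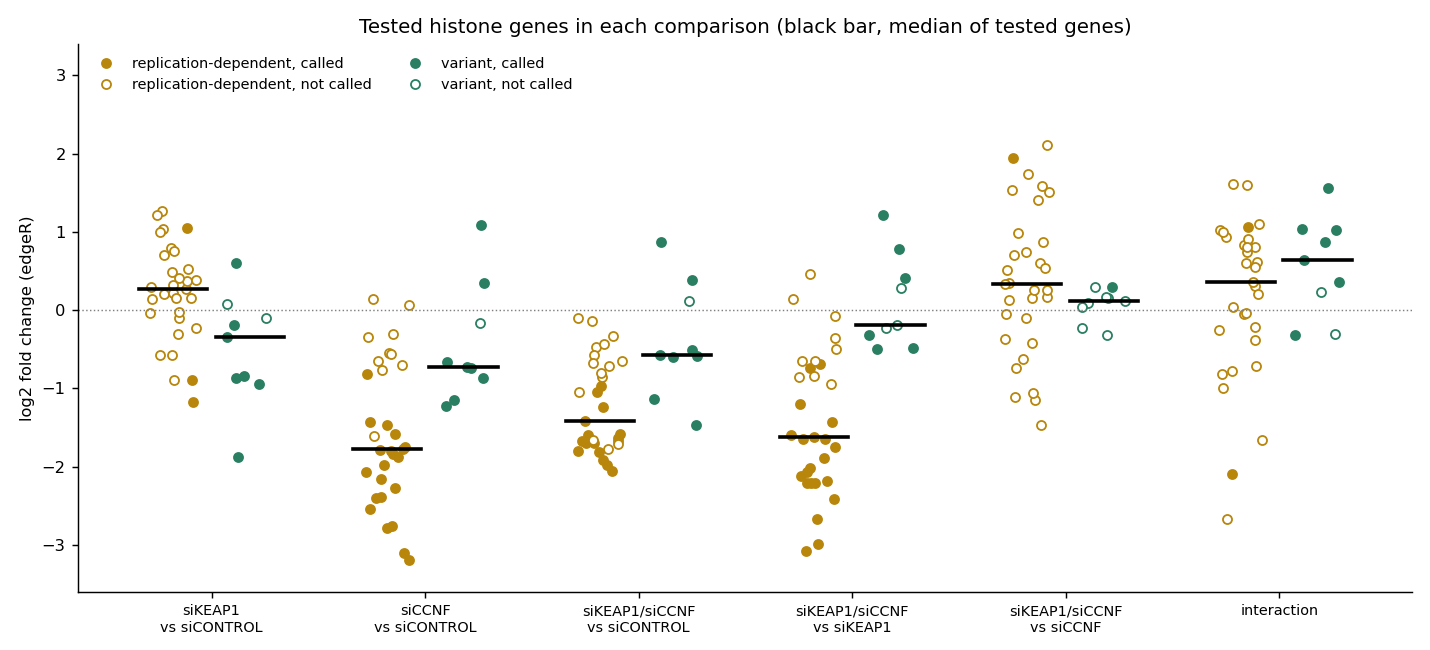
Log2 fold change of each tested histone gene in the 6 comparisons, replication-dependent in gold and variant in green, filled where the adjusted p was under 0.05. In the columns for siCCNF and for siKEAP1/siCCNF against either siCONTROL or siKEAP1 the gold medians lie between -1.42 and -1.77, below the green ones. The filter on low counts bears on the gold medians: 3 of 31 gold genes passed its level in all 12 libraries, against all 9 green genes.

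Among the linker histones Hist1h1c was at 86.6, 63.6 and 60.3 CPM in siCONTROL, 43.1, 33.5 and 37.0 in siKEAP1, 21.5, 19.0 and 21.9 in siCCNF and 24.7, 20.1 and 25.7 in siKEAP1/siCCNF. The depleted groups did not overlap with siCONTROL, and both siCCNF groups lay below siKEAP1. Its log2 fold change against siCONTROL was -0.89 (SE 0.14, adjusted p = 0.000216) after siKEAP1, -1.75 (SE 0.14, adjusted p = 6.32e-07) after siCCNF and -1.58 (SE 0.14, adjusted p = 1.82e-06) with both siRNAs by edgeR. Hist1h1d, another H1 gene, had 22, 16 and 24 reads in siCONTROL, 23, 38 and 23 in siKEAP1, 4, 3 and 7 in siCCNF and 5, 8 and 8 in siKEAP1/siCCNF. These are raw reads, and every siCCNF library was deeper than every siCONTROL library, so the drop in reads understates the drop in level. Hist1h1d fell by 2.78 on the log2 scale after siCCNF (SE 0.37, adjusted p = 4.56e-05) and by 1.92 after siKEAP1/siCCNF (SE 0.35, adjusted p = 0.000632). After siKEAP1 the value was 0.27 (adjusted p = 0.513). No library with siCCNF reached the filter level of 0.422 CPM for this gene, so the filter bears on its falls.

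The H2B gene Hist1h2bc, whose annotated 3′ UTR held no hairpin, fell too. It was at 9.64, 7.98 and 6.60 CPM in siCONTROL, 7.80, 7.82 and 7.98 in siKEAP1, 4.45, 4.86 and 4.51 in siCCNF and 3.57, 2.99 and 3.78 in siKEAP1/siCCNF. The siKEAP1 libraries lay within the siCONTROL range, whereas all libraries with siCCNF lay below it. The log2 fold change was -0.04 (SE 0.14, adjusted p = 0.857) after siKEAP1, -0.81 (SE 0.14, adjusted p = 0.000437) after siCCNF and -1.24 (SE 0.15, adjusted p = 2.11e-05) with both siRNAs. Hist1h2be had 27, 17 and 20 reads in siCONTROL, 31, 44 and 28 in siKEAP1, 35, 9 and 27 in siCCNF and 8, 15 and 3 in siKEAP1/siCCNF. It was called in the double depletion (-1.69, SE 0.45, adjusted p = 0.00737; 0.0524 without both libraries that follow gene length) and not after siCCNF (-0.55, adjusted p = 0.268), and its annotated span overlaps Hist1h1e on the same strand. Hist1h2bg fell by 1.47 after siCCNF (SE 0.39, adjusted p = 0.00712), with 20, 15 and 20 reads in siCONTROL and 9, 11 and 11 in siCCNF. Its value after siKEAP1/siCCNF was -0.48 (adjusted p = 0.314). Neither Hist1h2be nor Hist1h2bg reached the filter level of 0.422 CPM in all siCCNF libraries, so the filter could select both.

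Only 3 of 17 replication-dependent H2A genes were tested. Hist1h2ae had 21, 27 and 24 reads in siCONTROL, 21, 42 and 32 in siKEAP1, 5, 10 and 17 in siCCNF and 4, 10 and 15 in siKEAP1/siCCNF. Both siCCNF groups lay below siCONTROL. The filter could select this gene, which reached 0.422 CPM in all siCONTROL libraries but not in all libraries of either siCCNF group. It fell by 1.84 after siCCNF (SE 0.48, adjusted p = 0.00635) and by 1.68 after siKEAP1/siCCNF (SE 0.48, adjusted p = 0.0127), the latter at an adjusted p of 0.0503 without siKEAP1/siCCNF replicate 1.

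Of the H3 genes, Hist1h3h had the lowest value after siCCNF, with 26, 17 and 18 reads in siCONTROL, 24, 36 and 31 in siKEAP1, 2, 5 and 3 in siCCNF and 2, 14 and 7 in siKEAP1/siCCNF. The log2 fold change was -3.20 (SE 0.52, adjusted p = 0.000212) after siCCNF and -1.80 (SE 0.45, adjusted p = 0.00590) after siKEAP1/siCCNF. It shares 92.0% of its windows with other H3 genes, so its reads may not be its own. Hist1h3e was lowest after siKEAP1/siCCNF (-2.05, SE 0.62, adjusted p = 0.0156), from 16, 3 and 14 reads in siCONTROL to 2, 5 and 3. That call was lost in 4 of 20 alternatives, and the call after siCCNF (-1.43, adjusted p = 0.0475) in 16 of 20. Hist1h3g, whose transcript ends close to the hairpin shown above, had 14, 8 and 10 reads in siCONTROL and 29, 31 and 14 in siKEAP1. Its rise after siKEAP1 (1.04, SE 0.37, adjusted p = 0.0404) rests on overlapping groups and was lost in 14 of 21 alternatives. After siCCNF it fell to 6, 2 and 3 reads (-2.16, SE 0.49, adjusted p = 0.00248). Hist1h3h, Hist1h3e and Hist1h3g all lay under the filter level of 0.422 CPM in every siCCNF library. They were tested because of other groups, so the filter bears on their falls. Hist2h3c2 had 19, 13 and 21 reads in siCONTROL and 11, 6 and 9 in siKEAP1 (-1.17, SE 0.37, adjusted p = 0.0223), and shares 61.6% of its windows with a neighbouring copy. The call of Hist2h3c2 was lost in 4 of 21 alternatives, among them those without siCONTROL replicate 3 and without siKEAP1 replicate 2 or 3.

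The H4 gene Hist1h4i was at 3.05, 2.01 and 3.03 CPM in siCONTROL, 1.77, 2.51 and 2.28 in siKEAP1, 1.23, 0.700 and 0.751 in siCCNF and 1.19, 1.51 and 1.19 in siKEAP1/siCCNF. All libraries with siCCNF lay below all without it. It fell by 1.58 after siCCNF (SE 0.27, adjusted p = 0.000339) and by 1.05 after siKEAP1/siCCNF (SE 0.27, adjusted p = 0.00590), and its value after siKEAP1 was -0.30 (adjusted p = 0.377). Hist4h4, the replication-dependent gene on chromosome 6, had 11, 6 and 15 reads in siCONTROL, 11, 17 and 17 in siKEAP1, 3, 5 and 2 in siCCNF and 11, 13 and 9 in siKEAP1/siCCNF. It fell after siCCNF (-2.27, SE 0.49, adjusted p = 0.00194), with -0.33 (adjusted p = 0.542) after siKEAP1/siCCNF. All siKEAP1 libraries but no siCCNF library reached the filter level of 0.422 CPM for Hist4h4, so the filter bears on that fall.

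**Figure D4:**
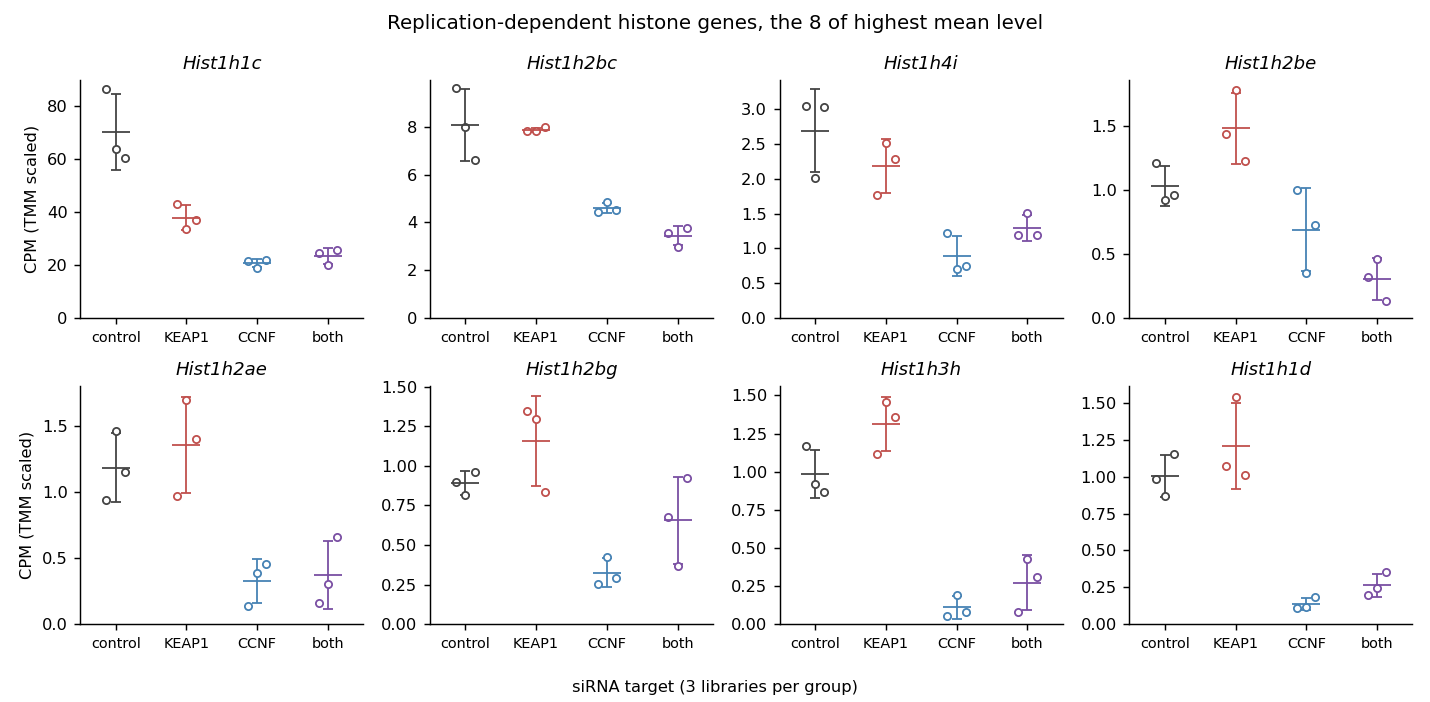
CPM of the 8 replication-dependent genes of highest mean level, with a point for each library and bars for the mean ± SD of 3. Hist1h1c is the gene that falls in siKEAP1, and 7 of the 8 fall in siCCNF, all but Hist1h2be.

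Variant histones moved in both directions. Per length, H3f3b was highest at a mean of 259 FPKM over the 12 libraries, then H2afz at 207, H1f0 at 93.7, H3f3a at 69.9, H2afv at 63.4 and H2afx at 48.1, followed by H2afy2, H2afj and H2afy at 13.9, 13.2 and 12.7. In siCONTROL H2afv (90.3 ± 17.3), H3f3a (87.5 ± 8.65) and H2afx (79.9 ± 8.99) did not differ beyond their spread, and the order of the last 3 changed with the group. H1f0 followed H2afz in siCONTROL at 179.9 FPKM, but in siKEAP1 it stood at 49.0, below H3f3a at 81.6 and next to H2afv at 49.6. Hist1h1c, the highest replication-dependent gene, was at 24.3 FPKM. Of the 9 tested variants, 1 rose and 6 fell with siKEAP1, while 2 rose and 6 fell with siCCNF and again with the double depletion, at median log2 fold changes of -0.34, -0.72 and -0.57. Beside them 20.4% of all tested genes rose and 20.2% fell with siKEAP1, 22.5% and 25.5% with siCCNF, and 20.6% and 23.6% with the double depletion. All 9 passed the filter level in every library, so the filter did not select on direction here.

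H1f0, the linker histone typical of resting and differentiating cells, was at 469, 336 and 313 CPM in siCONTROL, 112, 90.6 and 101 in siKEAP1, 182, 164 and 157 in siCCNF and 135, 131 and 137 in siKEAP1/siCCNF. No depleted library overlapped with siCONTROL, and siKEAP1 was the lowest group. It fell by 1.88 on the log2 scale after siKEAP1 (SE 0.13, adjusted p = 1.81e-07), by 1.15 after siCCNF (SE 0.13, adjusted p = 9.95e-06) and by 1.47 with both siRNAs (SE 0.13, adjusted p = 1.55e-06). The other highly expressed linker gene, Hist1h1c, had its lowest level in siCCNF instead.

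H2afx encodes H2A.X, which is phosphorylated at DNA breaks, and its mRNA is the variant that carries the hairpin. It was at 124, 111 and 99.1 CPM in siCONTROL, 55.2, 59.2 and 59.5 in siKEAP1, 45.0, 47.9 and 50.1 in siCCNF and 49.7, 47.6 and 55.3 in siKEAP1/siCCNF. All depleted libraries lay below siCONTROL and close to each other. Its log2 fold change was -0.94 (SE 0.09, adjusted p = 2.18e-06) after siKEAP1, -1.22 (SE 0.09, adjusted p = 1.89e-07) after siCCNF, the largest fall of a variant there, and -1.13 (SE 0.09, adjusted p = 4.68e-07) with both siRNAs.

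The H2A.Z genes H2afz and H2afv also fell in all 3 comparisons with siCONTROL. H2afz was at 600, 443 and 433 CPM in siCONTROL, 400, 397 and 369 in siKEAP1, 284, 272 and 253 in siCCNF and 322, 304 and 370 in siKEAP1/siCCNF. Its change after siKEAP1 was the smallest (-0.34, SE 0.11, adjusted p = 0.0297), and that call was lost in 7 of 22 alternatives, among them those without siCONTROL replicate 1 or without any 1 siKEAP1 library. After siCCNF it fell by 0.87 (SE 0.11, adjusted p = 4.03e-05) and after siKEAP1/siCCNF by 0.57 (SE 0.11, adjusted p = 0.00125). H2afv was at 181, 137 and 128 CPM in siCONTROL and between 78.6 and 107 in the other 9 libraries. It fell by 0.87 after siKEAP1, 0.74 after siCCNF and 0.59 with both siRNAs (adjusted p = 4.46e-05, 0.000129 and 0.000838).

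H3f3a and H3f3b encode the same H3 protein, which is placed on chromatin outside DNA replication. H3f3b was at 1057, 930 and 914 CPM in siCONTROL, 844, 861 and 837 in siKEAP1, 604, 623 and 595 in siCCNF and 669, 669 and 705 in siKEAP1/siCCNF. It fell by 0.67 after siCCNF (SE 0.06, adjusted p = 2.27e-06) and by 0.51 after siKEAP1/siCCNF (SE 0.06, adjusted p = 2.98e-05). The value of -0.19 after siKEAP1 (adjusted p = 0.0288) was lost in 5 of 22 alternatives, among them those without siCONTROL replicate 1 and without siKEAP1 replicate 1 or 3. H3f3a was at 343, 299 and 285 CPM in siCONTROL, 300.3, 284 and 276 in siKEAP1, 195, 181 and 184 in siCCNF and 196, 207 and 207 in siKEAP1/siCCNF. It fell by 0.72 and 0.60 in both comparisons with siCCNF (adjusted p = 3.58e-06 and 1.94e-05), with -0.11 (adjusted p = 0.268) after siKEAP1. Both genes share reads with processed copies or an antisense neighbour to an extent that was not resolved, H3f3a over 20.8% of its windows.

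The macroH2A genes and H2afj did not follow this order. H2afy, a macroH2A gene, was at 85.8, 75.3 and 70.9 CPM in siCONTROL, 121, 119 and 114 in siKEAP1, 67.3, 70.6 and 68.3 in siCCNF and 84.6, 85.7 and 81.9 in siKEAP1/siCCNF. It was highest in siKEAP1 and rose there by 0.61 (SE 0.07, adjusted p = 1.58e-05), with -0.17 (adjusted p = 0.0626) after siCCNF and 0.12 (adjusted p = 0.185) after siKEAP1/siCCNF. H2afy2, the second macroH2A gene, showed the reverse, at 28.1, 30.8 and 29.3 CPM in siCONTROL, 18.2, 15.0 and 16.1 in siKEAP1, 40.2, 36.8 and 35.0 in siCCNF and 37.0, 35.2 and 42.5 in siKEAP1/siCCNF. It fell by 0.84 after siKEAP1 (SE 0.10, adjusted p = 1.62e-05) and rose by 0.35 after siCCNF (SE 0.09, adjusted p = 0.00817) and 0.38 with both siRNAs (SE 0.09, adjusted p = 0.00522). H2afj, a further H2A variant, was at 22.3, 13.4 and 12.9 CPM in siCONTROL, 17.8, 17.1 and 16.5 in siKEAP1, 39.3, 29.6 and 34.8 in siCCNF and 27.8, 26.5 and 34.4 in siKEAP1/siCCNF. All libraries with siCCNF lay above all without it. It rose by 1.09 after siCCNF (SE 0.18, adjusted p = 0.00028) and by 0.86 after siKEAP1/siCCNF (SE 0.18, adjusted p = 0.00184), with 0.08 (adjusted p = 0.775) after siKEAP1.

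**Figure D5:**
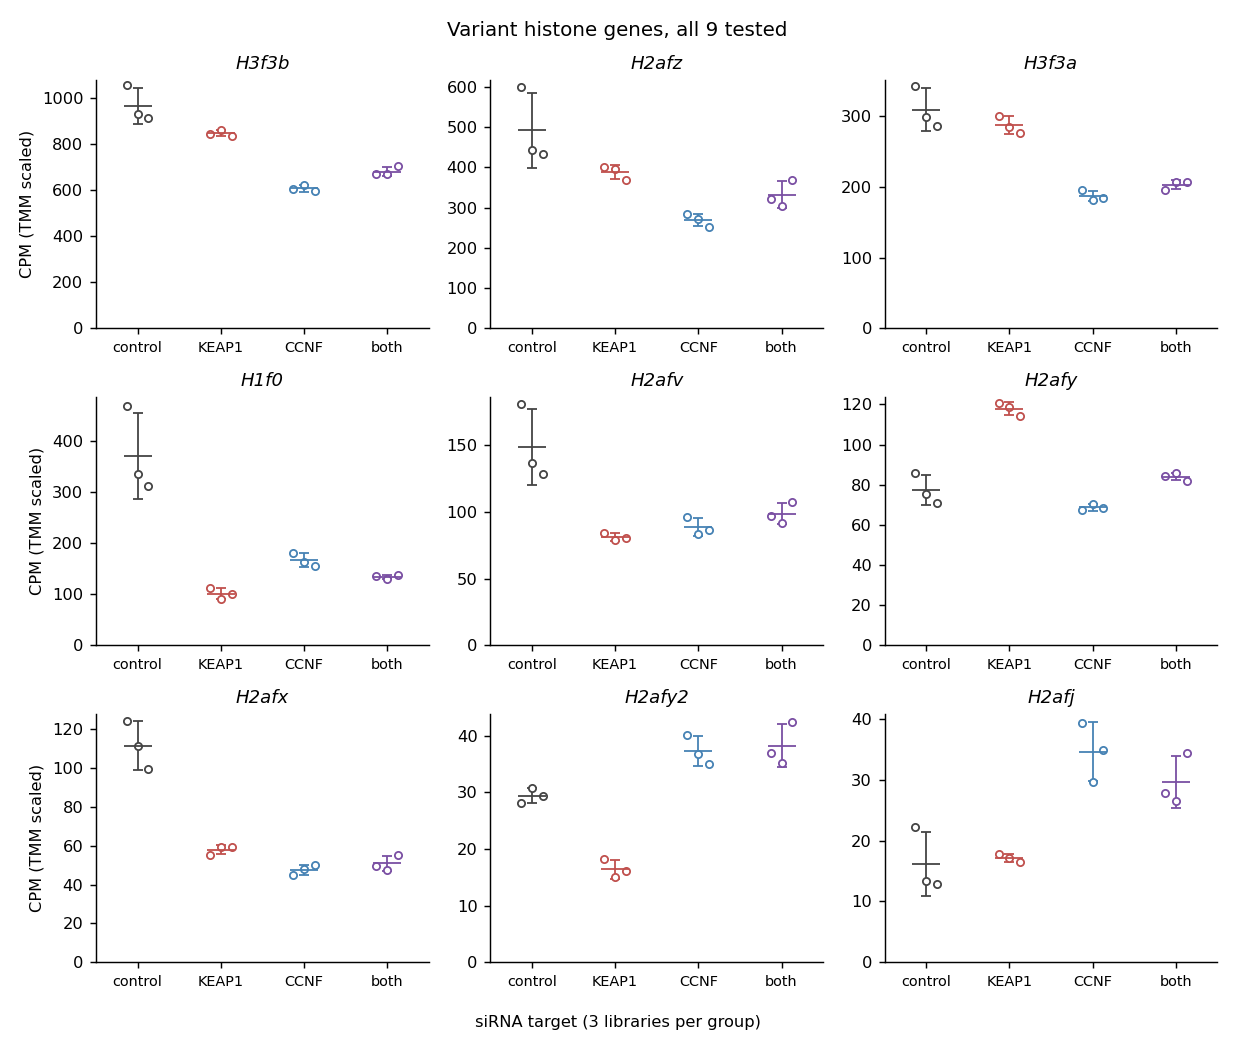
CPM of the 9 tested variant histone genes, with a point for each library and bars for the mean ± SD of 3. H1f0 is lowest in siKEAP1, H2afy is highest there, and H2afj and H2afy2 are higher in both siCCNF groups than in siCONTROL or siKEAP1.

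Adding siCCNF to siKEAP1 lowered the 3 replication-dependent genes with at least 10 reads in every library. In siKEAP1/siCCNF against siKEAP1 21 of the 31 tested genes fell and none rose, beside 26.9% of all tested genes lower and 24.1% higher, with a median log2 fold change of -1.62. The filter bears on that count and median too, since 19 of the 31 genes passed its level in all siKEAP1 libraries and 3 in all siKEAP1/siCCNF libraries. Hist1h3a had the lowest value, with 18, 18 and 10 reads in siKEAP1 and 1, 2 and 3 in siKEAP1/siCCNF (-3.07, SE 0.57, adjusted p = 0.000554), a fit on 3 reads or fewer per library. Of the 3 genes free of that selection Hist1h1c fell by 0.69 (SE 0.14, adjusted p = 0.00136), Hist1h2bc by 1.20 (SE 0.15, adjusted p = 2.08e-05) and Hist1h4i by 0.75 (SE 0.27, adjusted p = 0.0328), the last lost in 6 of 22 alternatives, among them those without siKEAP1 replicate 2 or 3 and without siKEAP1/siCCNF replicate 1 or 3. Among the variants H2afy2 rose by 1.22 (SE 0.10, adjusted p = 3.66e-07), H2afj by 0.79 (adjusted p = 0.00282) and H1f0 by 0.41 (adjusted p = 0.0179, lost without siKEAP1 replicate 2 at 0.0775). H3f3a, H2afy and H3f3b fell by 0.50, 0.49 and 0.32 (adjusted p = 7.8e-05, 7.23e-05 and 0.00107).

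Adding siKEAP1 to siCCNF moved few members. In siKEAP1/siCCNF against siCCNF Hist4h4 rose (1.94, SE 0.49, adjusted p = 0.0379) among the replication-dependent genes and H2afy among the variants (0.29, SE 0.07, adjusted p = 0.0304), and none fell, beside 3.00% of all tested genes higher and 2.19% lower. The 0 that fell was 3 replication-dependent genes and 1 variant at an unadjusted p under 0.05, and 0 by DESeq2. Hist4h4 lost its call in 13 of 21 alternatives, DESeq2 and the fit with the compared groups alone among them, and H2afy in 9 of 22. H1f0 was at -0.32 (adjusted p = 0.202), H2afz at 0.30 (adjusted p = 0.173) and H2afx at 0.09 (adjusted p = 0.652) in the same comparison.

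The interaction asks whether KEAP1 loss acted differently once CCNF was depleted, as siKEAP1/siCCNF against siCCNF less siKEAP1 against siCONTROL. It was called for Hist1h1c (1.06) and Hist1h2bq (-2.10) among the replication-dependent genes. Only in siKEAP1 did all libraries reach the filter level of 0.422 CPM for Hist1h2bq, so the filter bears on its value. The interaction was called for 7 of 9 variants, 6 of them higher, beside 10.6% of all tested genes higher and 10.5% lower. The largest was that of H1f0 at 1.56 (SE 0.18, adjusted p = 7.79e-05): in control cells H1f0 fell by 1.88 after siKEAP1, and in CCNF-depleted cells the value was -0.32. H2afx (1.03, SE 0.12, adjusted p = 8.94e-05) and Hist1h1c (1.06, SE 0.20, adjusted p = 0.00232) also fell after siKEAP1 in control cells, by 0.94 and 0.89, whereas in CCNF-depleted cells their log2 fold changes were 0.09 and 0.17, above 0 and not called.

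Factors that make and remove histone mRNA had no common direction. Of a list of 26 genes for histone mRNA processing and turnover, 24 were in the table under these symbols and were tested. After siKEAP1 3 rose and 6 fell, after siCCNF 4 rose and 7 fell, and after siKEAP1/siCCNF 2 rose and 5 fell, with medians of 0.02, 0.01 and 0.02. Over all tested genes 20.4% rose and 20.2% fell, 22.5% rose and 25.5% fell, and 20.6% rose and 23.6% fell, so that the list was called at near those shares after siKEAP1 and siCCNF and below them after siKEAP1/siCCNF. Eri1, an exonuclease that trims and degrades histone mRNA ends, fell by 1.50 after siCCNF (SE 0.06, adjusted p = 3.12e-09) and by 1.38 after siKEAP1/siCCNF (adjusted p = 4.95e-09). Upf1, a helicase needed for histone mRNA decay, rose by 0.47 and 0.42 in the same comparisons (adjusted p = 8.5e-05 and 0.000232). After siKEAP1 the largest called values were Mif4gd, an SLBP partner in translation, at 0.51 (adjusted p = 0.00643), and Ncbp2, a cap-binding subunit, at -0.61 (adjusted p = 6.79e-05). Slbp itself was at 90.8 ± 1.42 CPM in siCONTROL, 74.9 ± 2.59 in siKEAP1, 75.4 ± 2.27 in siCCNF and 84.4 ± 4.90 in siKEAP1/siCCNF. It fell by 0.28 after siKEAP1 (adjusted p = 0.00261) and by 0.27 after siCCNF (adjusted p = 0.00267), with -0.11 (adjusted p = 0.178) after siKEAP1/siCCNF. Npat, the activator of the histone clusters, was at 41.8 ± 6.93, 46.2 ± 1.67, 48.5 ± 4.56 and 49.3 ± 9.93 CPM in the same order, and its 3 comparisons with siCONTROL were not called (adjusted p = 0.462, 0.241 and 0.200).

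Of 32 histone chaperone and exchange genes, all tested, 1 rose and 12 fell after siKEAP1, 5 rose and 15 fell after siCCNF, and 6 rose and 16 fell with both siRNAs, with medians of -0.11, -0.21 and -0.20. The shares of all tested genes were 20.4% higher and 20.2% lower, 22.5% and 25.5%, and 20.6% and 23.6%, and after siKEAP1 the list was called in either direction at close to the share of all tested genes. Chaf1b, a subunit of the chaperone that brings H3 and H4 to replicated DNA, had the lowest value after siCCNF (-1.36, SE 0.10, adjusted p = 3.22e-07), and Cenpa, the centromeric H3, after siKEAP1/siCCNF (-1.02, SE 0.07, adjusted p = 2.1e-07). Supt6, which carries histones past RNA polymerase, rose by 0.62 after siCCNF (adjusted p = 0.000107) and the importin Ipo4 by 0.52 after siKEAP1/siCCNF (adjusted p = 0.000322). After siKEAP1 the largest called values were those of Ino80, a remodeler that acts on H2A.Z, at 0.38 (adjusted p = 0.0267) and of Spty2d1, a chaperone of H3 and H4, at -0.79 (adjusted p = 5.18e-05).

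Genes of DNA replication moved with the replication-dependent histones after siCCNF. Of 27 such genes 27 fell after siCCNF, 25 fell after siKEAP1/siCCNF, and 17 fell and 1 rose after siKEAP1, with medians of -0.94, -0.59 and -0.28. Over all tested genes 25.5%, 23.6% and 20.2% fell in these comparisons, and 20.4% rose after siKEAP1. Rfc3, a clamp loader subunit, was lowest after siKEAP1 (-0.76, adjusted p = 2.05e-05), and Dnmt1, the maintenance DNA methyltransferase, rose there by 0.34 (adjusted p = 0.00657). The share of cells in S phase was not measured, and its part in the histone values was not tested. The log2 summed replication-dependent level followed that of the variants (Pearson r = 0.946 over 12 libraries in 4 groups) more closely than that of H1f0 (r = 0.466). Among the 5 tested genes most like it were Mettl9, Hadhb, Fhl3 and Vim (r = 0.993 to 0.990), which is a description of 4 group levels scaled by the same library totals.

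Promoters were compared because the summed level of the replication-dependent genes was lower after siCCNF. RefSeq promoters, from 250 bases before to 50 after the start in GRCm38.p6, were matched for 59 replication-dependent genes and 11 variants. Both strands were searched, and motifs may overlap. Where the windows of neighbouring genes overlap, the same motif can be counted for both genes. CCAAT was in 84.7% of the replication-dependent promoters, 72.7% of the variant ones and 37.4% of all 32851, and TATAAA in 55.9%, 9.09% and 13.6%. The octamer ATTTGCAT was in 6 of 17 H2A and 5 of 15 H2B promoters and in 1.74% of all, and the H1 element AAACACA in 4 of 5 H1 promoters and 7.18% of all. TTTGGCGC was in 0 and TTTCCCGC in 1 of the 59 replication-dependent promoters, against 0.514% and 1.07% of all, and neither was in a variant promoter. The most abundant replication-dependent gene, a called H2A gene that the filter could select and the variant linker gene are shown. These motifs are in capitals on either strand.
Hist1h1c, chr13:23738557-23738856, plus strand: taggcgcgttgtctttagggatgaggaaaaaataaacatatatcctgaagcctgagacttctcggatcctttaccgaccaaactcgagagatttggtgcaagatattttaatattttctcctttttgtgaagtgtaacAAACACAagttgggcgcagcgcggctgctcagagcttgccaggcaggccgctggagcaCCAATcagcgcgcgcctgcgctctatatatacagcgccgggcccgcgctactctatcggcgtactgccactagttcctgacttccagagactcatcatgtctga
Hist1h2ae, chr13:23571171-23571470, minus strand: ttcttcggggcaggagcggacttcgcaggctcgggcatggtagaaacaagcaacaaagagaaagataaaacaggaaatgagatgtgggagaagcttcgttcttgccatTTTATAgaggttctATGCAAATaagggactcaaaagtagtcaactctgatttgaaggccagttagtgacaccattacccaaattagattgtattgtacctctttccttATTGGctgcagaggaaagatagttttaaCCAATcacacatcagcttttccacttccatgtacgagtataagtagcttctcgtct
H1f0, chr15:79027962-79028261, plus strand: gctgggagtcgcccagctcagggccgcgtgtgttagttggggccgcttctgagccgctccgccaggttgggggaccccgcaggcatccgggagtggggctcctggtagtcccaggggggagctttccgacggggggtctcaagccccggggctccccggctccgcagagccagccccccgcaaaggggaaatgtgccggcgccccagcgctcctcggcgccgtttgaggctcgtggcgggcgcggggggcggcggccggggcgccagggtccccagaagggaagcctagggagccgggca
The Hist1h1c window holds the H1 element and CCAAT, and the Hist1h2ae window holds the octamer, CCAAT and TATAAA. None of the letters searched is in the H1f0 window. That window ends before 79028450, where the counted H1f0 gene starts, so the sequence next to that start was not searched. The Hist1h2ae window overlaps that of Hist1h2bg on the other strand, and both genes fell after siCCNF. The TATAAA and the octamer of this window read on the strand of Hist1h2bg and lie nearer to the start of Hist1h2bg. They may therefore not belong to Hist1h2ae.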

How the data were processed

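Poly(A)-enriched mRNA of C2C12 cells was sequenced in 12 libraries, 3 for each of 4 siRNA groups, which were assigned from the treatment labels. Library preparation, sequencing and analysis were done by a service provider. The authors deposited 1 table of 54532 genes with raw read counts per gene and library, which carry no normalization, and FPKM values of the same libraries (scaled for gene length and depth by the provider). The deposited gene length column was used for a length check, and the authors' own fold changes and p-values for each depletion against siCONTROL were not used. The submitters' processing notes name HISAT2 and GRCm39. Identifiers and coordinates of the table match a GRCm38 annotation instead (53462 of 54409 shared identifiers, or 98.3%, with the same chromosome, start and end, and 79 of 79 members), so coordinates here are GRCm38. Counting tool, strand setting and treatment of shared reads are not given in the sources used here.

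Counts were tested with edgeR 4.0.16 in R 4.3.3 (filterByExpr, TMM, quasi-likelihood test, 4 group means fitted to 12 libraries). The filter asked for 0.422 CPM in at least 3 libraries and left 15122 genes, and Benjamini-Hochberg adjustment ran over all of them. A gene was called at an adjusted p under 0.05. On counts simulated from these libraries, 194 of 200 genes with a 2-fold change between siCCNF and siCONTROL were recovered. False calls numbered 4 among 14351 genes. The changed genes were drawn from genes with mean counts above those of every replication-dependent gene except Hist1h1c and Hist1h2bc. The recovery therefore does not cover the other replication-dependent genes. Fold changes are on the log2 scale with their SE. CPM values are mean ± SD of 3 libraries. Totals of 18464209 to 37743198 counts per library make 3 counts equal to 0.0795 to 0.162 CPM. SD, SE and p-values rest on the spread between these libraries, counting error included. Hairpins were searched in GENCODE transcripts of GRCm38 and promoters in RefSeq sequences.

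The members, classes and gene lists were chosen with earlier results of these data known. Genes were named by rule: the 8 replication-dependent genes of highest mean CPM, all tested variants, the largest called rise and fall of each class in each comparison and of each list against siCONTROL, Slbp, Npat, Keap1, Ccnf and the 5 genes most like the summed level. Some genes that this rule names are not reported here. Alternatives were DESeq2 1.42.0, total library sizes, no filter, at least 10 counts in every library, a replicate block, limma 3.58.1 on log2(FPKM + 1) and log2(FPKM + 0.1), removal of a gene length trend, the compared groups alone, leaving out each library or both libraries that follow gene length, and a 2-fold threshold.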

Additional observations from a re-analysis of the deposited data

Results flagged for a closer look

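The effect of siKEAP1 differed between control and CCNF-depleted cells for 9 named histone genes by the interaction term of edgeR (adjusted p under 0.05, 3 libraries per group). The difference was positive for H1f0 (1.56, SE 0.18, adjusted p = 7.79e-05), Hist1h1c (1.06, SE 0.20, adjusted p = 0.00232), H2afx (1.03, SE 0.12, adjusted p = 8.94e-05), H2afv (1.02, SE 0.16, adjusted p = 0.000628), H2afy2 (0.87, SE 0.13, adjusted p = 0.000555), H2afz (0.64, SE 0.16, adjusted p = 0.0129) and H3f3b (0.36, SE 0.09, adjusted p = 0.0131). Each of these 7 genes fell after siKEAP1 in control cells and was not called in siKEAP1/siCCNF against siCCNF. It was negative for H2afy (-0.32, SE 0.10, adjusted p = 0.0378), which rose by 0.61 after siKEAP1 in control cells and by 0.29 in CCNF-depleted ones, and for Hist1h2bq (-2.10, SE 0.69, adjusted p = 0.0469). The last had 8, 11 and 5 reads in siCONTROL, 15, 21 and 20 in siKEAP1, 15, 5 and 6 in siCCNF and 3, 5 and 2 in siKEAP1/siCCNF. It shares 94.8% of its windows with Hist1h2br and other copies. All of its siKEAP1 libraries reached the filter level of 0.422 CPM, but no other group did so in all libraries. The filter therefore bears on its negative difference. Adjusted p-values over the alternatives ran from 0.000561 to 0.276 for H2afy and from 0.0201 to 0.161 for Hist1h2bq, which lost their calls in 14 of 21 and 14 of 20. The other 7 kept theirs in every alternative run. Residual Keap1 was higher in siKEAP1/siCCNF (24.1 CPM) than in siKEAP1 (12.6 CPM), and the part of this difference in the interaction was not tested.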

How the results depend on the processing

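Of 79 called values of named genes, 61 kept their call in every alternative run and none changed sign. Of 39 values that were not called, 4 changed sign somewhere. In siKEAP1 against siCONTROL these were Hist1h2bc (-0.173 to 0.102 over the libraries left out, with 0.102 without siCONTROL replicate 1 and without both libraries that follow gene length), H2afj (-0.0720 to 0.374, below 0 without siCONTROL replicate 2 or 3) and Hist1h3e (-0.244 to 0.450, below 0 without siCONTROL replicate 2 or siKEAP1 replicate 2). In siKEAP1/siCCNF against siCCNF it was H2afy2 (-0.0552 to 0.0837 over the libraries left out, below 0 without siCCNF replicate 3 or siKEAP1/siCCNF replicate 3, with -0.0107 with the length trend removed and -0.0558 without both libraries that follow gene length).

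At least 10 counts in every library left 3 replication-dependent genes to test. That setting gave 1 call for siKEAP1, 3 each for siCCNF, siKEAP1/siCCNF and siKEAP1/siCCNF against siKEAP1, 0 for siKEAP1/siCCNF against siCCNF and 1 for the interaction. With no filter 58 genes were tested, with 1 call for siKEAP1, 10 for siKEAP1/siCCNF and 0 for siKEAP1/siCCNF against siCCNF. With the compared groups alone the calls were 13 of 17 tested genes for siCCNF and 9 of 17 for siKEAP1/siCCNF. For siKEAP1/siCCNF against siCCNF they were 0 of 12, where DESeq2 gave 0 of 31. limma gave 7 (pseudocount 1) and 6 (0.1) for siKEAP1, and 2 (0.1) for siKEAP1/siCCNF against siCCNF. Without both libraries that follow gene length there were 10 of 36 for siKEAP1/siCCNF and 2 of 36 against siCCNF. Leaving out each library gave 1 to 4 for siKEAP1, 16 to 22 for siCCNF, 8 to 16 for siKEAP1/siCCNF, 14 to 25 against siKEAP1, 0 to 1 against siCCNF and 1 to 3 for the interaction. The number of genes tested also changed with the library left out.

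Of 9 tested variants, those called and over 2-fold numbered 1 for siKEAP1, 3 for siCCNF, 2 for siKEAP1/siCCNF, 1 against siKEAP1, 0 against siCCNF and 3 for the interaction. No share of all tested genes over 2-fold is given beside these counts, so they are not read as results about the variants. Without a fold threshold, calls against siCCNF were 2 with no filter, 0 with the length trend removed, 2 with the compared groups alone and 5 without both libraries that follow gene length. Leaving out each library gave 5 to 7 for siKEAP1, 8 to 9 for siCCNF and for siKEAP1/siCCNF, 5 to 9 against siKEAP1, 0 to 3 against siCCNF and 6 to 8 for the interaction. Except where the setting changed the genes or libraries used, the cause was not tested.

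Same-numbered libraries deviated together in 4 of 18 pairs (r over 0.1, range -0.268 to 0.204), so the numbers were not taken to pair samples. The replicate block gave 19 called replication-dependent genes for siCCNF, 13 for siKEAP1/siCCNF, 0 for siKEAP1/siCCNF against siCCNF and 1 for the interaction. The compared-groups fit was not run for the interaction, which needs all 4 groups. Most replication-dependent genes had under 45 reads per library, so small differences were not detectable.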
